A study of Arabidopsis thaliana with 8 samples.

Results

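The plant defensins of the PDF1 group and the ethylene response factor (ERF) branch of jasmonate and ethylene signalling were examined in Arabidopsis thaliana seedlings, comparing the ubp5 line with its wild type, Col-0. The set held 10 genes, named by gene identifier, of the 37336 genes listed in the count files. It comprised PDF1.1 (AT1G75830), PDF1.2a (AT5G44420), PDF1.2b (AT2G26020), PDF1.2c (AT5G44430), PDF1.3 (AT2G26010) and PDF1.4 (AT1G19610). To these were added the transcription factor genes ORA59 (AT1G06160) and ERF1 (AT3G23240) and the effector genes HEL/PR4 (AT3G04720) and CHIB/PR3 (AT3G12500). The set was chosen by its membership of this pathway and by the measured rise of PDF1.2a and PDF1.3 in ubp5 in these same libraries. The members' differences between ubp5 and Col-0 are therefore given as a description, without p-values.

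Plant defensins are small secreted peptides held together by cysteine bridges, and several of them inhibit the growth of fungi. In leaves, PDF1.2 is the classical read-out of combined jasmonate and ethylene signalling. Both hormones act through the factors ORA59 and ERF1, which bind the GCC box in the promoters of PDF1.2 and of genes for chitin-binding and chitin-degrading proteins such as PR4 and PR3. A second jasmonate branch, driven by MYC factors and marked by VSP2, and the salicylic acid pathway, marked by PR1, are known to act against it.

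The series asked how loss of UBP5, a ubiquitin-specific protease that acts on histone H2A, changes the transcriptome. Col-0 and ubp5 seedlings were grown on MS agar plates under long days and collected at 12 days after germination. Each genotype had 4 biological replicates. The ubp5 plants carried a CRISPR/Cas9 deletion inside the UBP5 gene in the Col-0 background, and a single line was used. Whether replicates came from separate plates is not stated in the sources used here, so the spread between them may be partly technical.

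Each library counted distinct molecular identifiers at the 3′ ends of transcripts, so that a molecule was counted once whatever its length. Library totals ran from 2572842 to 2997743 counts in Col-0 and from 1440510 to 2595285 in ubp5. UBP5 itself had 47, 57, 32 and 51 counts in Col-0 replicates 1 to 4 and 14, 13, 6 and 16 in ubp5 (log2 fold change -1.53, standard error 0.25, adjusted p = 0.00236 by edgeR's quasi-likelihood test), with the caveat that the place of the deletion relative to the counted 3′ end was not examined. The genotypes separated along the first principal component (44.4% of the variance). Col-0 replicate 1 stood apart from the other libraries along the second (15.6% of the variance), at 45.2 against -21.4 to 10.1. Results that rest on this library are given with and without it. The summed level of 3 shoot markers was 25469 to 35352 CPM (counts scaled to a common library total) in Col-0 and 22208 to 24455 in ubp5, and the summed level of 4 root markers was 28.2 to 49.2 and 28.7 to 41.8 CPM. Both organs were thus present in the samples labelled as seedlings. The shoot sums of the genotypes did not overlap, and their part in the values of the members was not tested. In such bulk samples fewer cells of a type and less RNA per cell cannot be told apart.

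The PDF1 group contains near copies, and their sequences are shown first because they decide whether reads can be assigned to single genes. PDF1.2a (chr5:17906968-17907638, minus strand, TAIR10.1) and PDF1.2c (chr5:17908850-17909507, minus strand) lie 1211 bases apart. PDF1.3 (chr2:11087280-11088001, plus strand) and PDF1.2b (chr2:11089123-11089805, plus strand) lie 1121 bases apart. PDF1.1 is at chr1:28472357-28472898 on the plus strand and PDF1.4 at chr1:6781483-6782216 on the minus strand. Each of the 6 genes has 2 exons. PDF1.1, PDF1.2a, PDF1.2b, PDF1.2c and PDF1.3 encode proteins of 80 residues with 8 cysteines, and PDF1.4 one of 78 residues with 9. The coding sequences of the 4 most alike genes, read from the TAIR10.1 genome with the RefSeq gene models, follow from start to stop codon, with bases that differ from PDF1.2a in capitals.
PDF1.2a: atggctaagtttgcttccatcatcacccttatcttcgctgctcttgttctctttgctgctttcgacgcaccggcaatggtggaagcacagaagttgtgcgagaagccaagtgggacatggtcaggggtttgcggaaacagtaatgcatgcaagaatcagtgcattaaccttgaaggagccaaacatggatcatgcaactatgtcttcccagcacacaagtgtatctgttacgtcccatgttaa
PDF1.2c: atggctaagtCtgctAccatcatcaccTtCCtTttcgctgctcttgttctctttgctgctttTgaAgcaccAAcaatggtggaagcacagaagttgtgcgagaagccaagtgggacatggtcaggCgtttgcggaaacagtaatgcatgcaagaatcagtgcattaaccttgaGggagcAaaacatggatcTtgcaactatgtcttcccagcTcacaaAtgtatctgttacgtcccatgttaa
PDF1.2b: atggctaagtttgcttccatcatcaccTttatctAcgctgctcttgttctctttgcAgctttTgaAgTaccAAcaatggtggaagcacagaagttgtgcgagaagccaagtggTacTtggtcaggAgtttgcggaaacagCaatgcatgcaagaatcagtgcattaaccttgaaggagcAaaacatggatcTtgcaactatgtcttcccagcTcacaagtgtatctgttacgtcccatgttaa
PDF1.3: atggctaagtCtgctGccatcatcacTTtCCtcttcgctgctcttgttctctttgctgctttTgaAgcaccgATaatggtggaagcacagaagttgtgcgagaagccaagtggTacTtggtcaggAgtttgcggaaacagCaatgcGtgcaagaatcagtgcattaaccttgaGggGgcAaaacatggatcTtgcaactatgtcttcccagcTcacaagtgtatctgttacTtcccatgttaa

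Over the 243 coding bases PDF1.2c differed from PDF1.2a at 16 positions, PDF1.2b at 15 and PDF1.3 at 21. PDF1.2c and PDF1.3 formed the closest pair, with 94.7% identical coding bases and 96.3% identical residues, although they lie on different chromosomes. PDF1.1 shared 87.2 to 90.5% of its coding bases with these 4 genes. PDF1.4 was the distant member, with 57.4 to 60.9% identical coding bases and 37.5 to 45.0% identical residues in comparison with the other 5. Within the last 500 bases of the transcripts, the stretch that 3′ tags sample, each 55-base window (the read length) of PDF1.2a and PDF1.2c was without an identical copy in the other PDF1 transcripts. PDF1.2b and PDF1.3 shared 18 of 446 windows with each other, and the other 428 (96.0%) were their own. In the last 300 bases no window was shared. A window with a copy in another PDF1 transcript at no more than 1 mismatch made up 10.3% of windows in PDF1.2a, 19.5% in PDF1.2c, 17.7% in PDF1.3 and 20.6% in PDF1.2b, and 0% in PDF1.1 and PDF1.4. The authors trimmed poly(A) tails from the reads and kept reads that mapped to a single place. Reads shorter than 55 bases are thus not covered by these windows, and reads with more than 1 match were not counted. Counts of single genes among the 4 near copies therefore carry some uncertainty, from sequencing errors and from shorter reads. Their sum is given as well, although it does not restore reads that were dropped.

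Upstream sequence was compared because the GCC box is the known element of this branch. The letters GCCGCC (or GGCGGC on the other strand) occurred within 500 bases before the annotated start of 1131 of 27443 protein-coding genes (4.12%). They were found once in PDF1.2a (first base 222 bases before the start), PDF1.2b (143), ORA59 (230) and HEL/PR4 (388). They were not in the window of PDF1.1, PDF1.2c, PDF1.3, PDF1.4, ERF1 or CHIB/PR3. The stretches below run 150 bases on the gene's strand, with GCCGCC in capitals, from PDF1.2a (252 to 103 bases before the start, chr5:17907741-17907890), PDF1.2b (173 to 24, chr2:11088950-11089099) and PDF1.2c (150 to 1, chr5:17909508-17909657).
PDF1.2a: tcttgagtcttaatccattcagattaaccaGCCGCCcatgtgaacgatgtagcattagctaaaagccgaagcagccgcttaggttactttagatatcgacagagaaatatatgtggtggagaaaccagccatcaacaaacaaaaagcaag
PDF1.2b: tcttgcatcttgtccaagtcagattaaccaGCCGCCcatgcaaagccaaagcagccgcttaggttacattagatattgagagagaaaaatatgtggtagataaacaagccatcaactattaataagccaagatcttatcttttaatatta
PDF1.2c: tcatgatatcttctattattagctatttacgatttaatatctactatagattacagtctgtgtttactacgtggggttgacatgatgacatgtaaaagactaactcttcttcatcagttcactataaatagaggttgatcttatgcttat

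Around GCCGCC the PDF1.2a and PDF1.2b stretches shared the same flanking letters. Alignment of the whole 500-base windows gave 57.8% identity for PDF1.2a with PDF1.2b, the highest among the PDF1 genes, and the lowest was 44.6%. The longest run of letters that PDF1.2a and PDF1.2b had in common was 28 bases, starting 457 bases before PDF1.2a and 453 before PDF1.2b.
PDF1.2a and PDF1.2b shared run: atgctgctcttgagatcaaccaaaccat
Among the 4 most alike genes, PDF1.2a and PDF1.2b, with GCCGCC, had log2 fold changes of 5.38 and 4.37 in ubp5 against Col-0. Without it PDF1.2c and PDF1.3 had 5.25 and 5.40. Of the other tested members, ORA59 (1.19) and HEL/PR4 (1.08) had the letters. PDF1.1 (1.97), PDF1.4 (2.24) and CHIB/PR3 (-0.68) did not. A relation between the letters and the fold changes was not tested. The G-box letters CACGTG were found in ORA59 alone among the 10 (194 bases before the start, 9.35% of all promoters). The W-box letters TTGACC were in PDF1.1, PDF1.2b, PDF1.4 and HEL/PR4 (20.7% of all promoters), and the telobox letters AAACCCTA were in none of the 10 (7.51%). The letters GAGAGA were in PDF1.2b, PDF1.2c and ORA59 (35.2%). All were searched on both strands, and a match is a description of letters, not a bound site.

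Of the 10 genes, 7 were called higher in ubp5, 0 lower, 2 were not called and ERF1 was too low to be tested. To be called, a gene had to change at least 1 unit on the log2 scale with its adjusted p below 0.05 (quasi-likelihood test of edgeR on 15649 genes, Benjamini-Hochberg adjustment). The background was 1.91% called higher and 2.93% lower. The same 7 genes had every ubp5 library above every Col-0 library, against 7.87% of all tested genes (9.37% had every ubp5 library below). Since this contrast helped to pick the genes, nothing is read from these counts. The median log2 fold change was 4.81 over the 6 PDF1 genes and 2.24 over the 9 tested members, beside -0.01 over all tested genes.

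**Figure D1:**
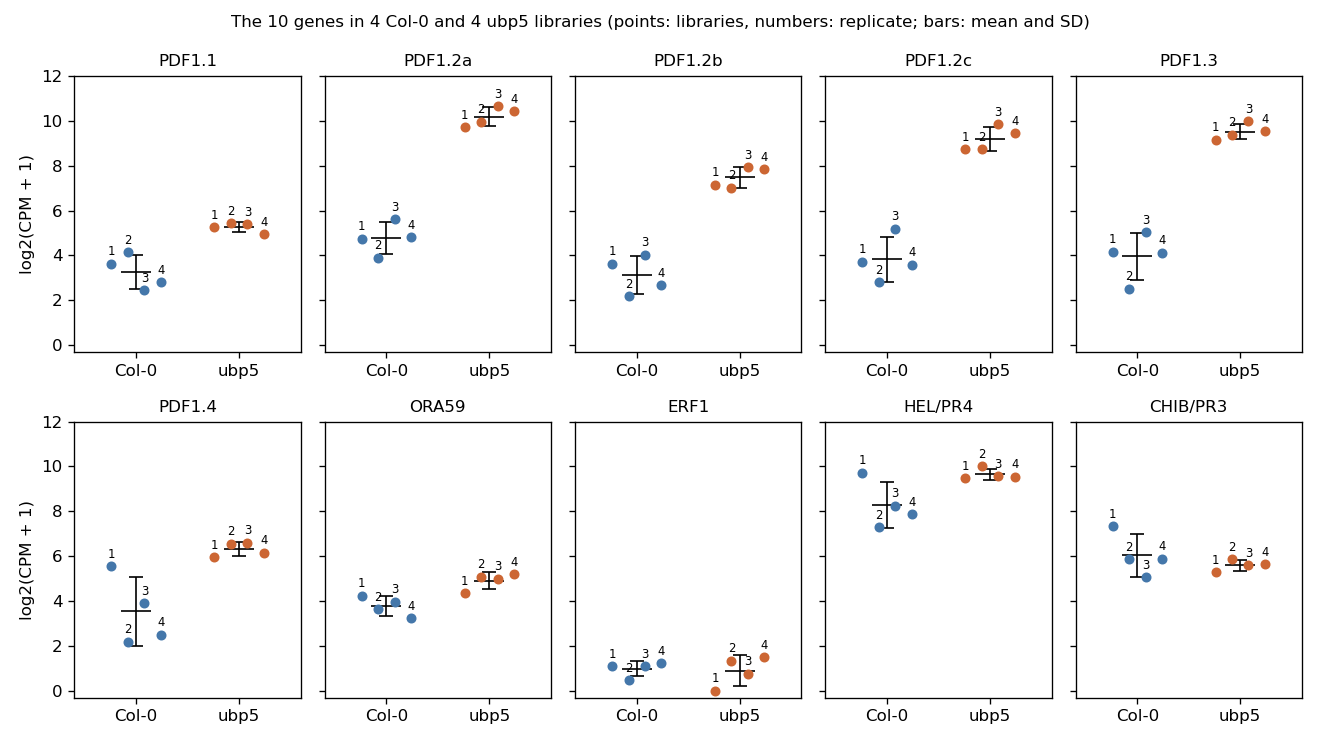
Level of each of the 10 genes in every library, as log2(CPM + 1) on the vertical axis, with Col-0 in blue and ubp5 in orange, replicate numbers above the points and bars for the mean and SD of the 4 log2 values. The 4 ubp5 points lie above the 4 Col-0 points in 7 panels, and the groups overlap for ERF1, HEL/PR4 and CHIB/PR3.

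PDF1.2a, PDF1.2b, PDF1.2c and PDF1.3, the leaf defensins induced by jasmonate and ethylene, rose the most, by 20.8 to 42.7 times in mean CPM. PDF1.2a had 68, 35, 129 and 81 counts in Col-0 replicates 1 to 4 and 1656, 2613, 2273 and 3051 in ubp5 replicates 1 to 4. Its level went from 28.8 ± 14.4 to 1206 ± 346 CPM (SD, n = 4), and the lowest ubp5 library stood 17.4 times above the highest Col-0 library. The log2 fold change was 5.38 with a standard error (SE) of 0.33.

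PDF1.2c, its tandem neighbour, had 32, 15, 95 and 33 counts in Col-0 and 834, 1125, 1315 and 1537 in ubp5, or 16.2 ± 13.3 and 619 ± 240 CPM (SD, n = 4). The log2 fold change was 5.25 (SE 0.44), with the groups 11.9 times apart at their closest libraries. PDF1.3 had 45, 12, 85 and 49 counts in Col-0 and 1126, 1745, 1441 and 1632 in ubp5, or 17.6 ± 11.2 and 749 ± 190 CPM. Its log2 fold change of 5.40 (SE 0.38) was the largest of the 10, and differed from those of PDF1.2a and PDF1.2c by less than their standard errors.

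PDF1.2b, the neighbour of PDF1.3, had 30, 9, 41 and 16 counts in Col-0 and 278, 338, 347 and 507 in ubp5. These correspond to 8.93 ± 5.47 and 186 ± 59.1 CPM (SD, n = 4), a 20.8-fold difference in means and a log2 change of 4.37 (SE 0.35). It was the lowest of the 4 near copies in mean CPM in both genotypes. The groups did not overlap, with the closest libraries 8.37 times apart.

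Within Col-0 the 4 genes moved together between libraries. Replicate 3 was the highest and replicate 2 the lowest Col-0 library for each of them, and the ratio of highest to lowest CPM was 3.49 for PDF1.2a, 4.32 for PDF1.2b, 6.00 for PDF1.2c and 6.71 for PDF1.3. Within ubp5 the same ratio was only 1.77 to 2.18, and replicate 3 was again the highest for each gene. These genes share their libraries, and the order of replicates carries no meaning beyond that. Col-0 replicate 1, which stood apart in the whole transcriptome, was in the middle of the Col-0 range for all 4, and leaving it out gave log2 fold changes between 4.51 and 5.39.

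Summed over the 4 near copies, so that reads placed on the wrong copy do not matter, the level was 66.4, 28.2, 132 and 59.9 CPM in Col-0 replicates 1 to 4. In ubp5 it was 1987, 2224, 3787 and 3044 CPM. The mean rose 38.6-fold, from 71.5 ± 43.4 to 2760 ± 821 CPM (SD, n = 4), with a log2 change of 5.27 (SE 0.40). The 4 genes took 0.00276 to 0.0128% of all counts in Col-0 libraries and 0.194 to 0.373% in ubp5 libraries.

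The division of this sum among the 4 genes was then compared, a measure that is free of differences in library size. PDF1.2a supplied 42.6 ± 5.74% (SD, n = 4) of the Col-0 sum and 43.8 ± 1.58% of the ubp5 sum. PDF1.2c supplied 21.2 ± 4.14% and 22.0 ± 2.18%, and PDF1.3 supplied 23.6 ± 4.62% and 27.5 ± 2.52%. For these 3 genes the ranges of the genotypes overlapped.

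PDF1.2b alone had ranges that did not overlap. Its share was 8.94 to 17.1% in Col-0 and 5.81 to 7.54% in ubp5, with means of 12.6 ± 3.41% and 6.73 ± 0.763% (SD, n = 4). The Col-0 shares rest on few counts: in Col-0 replicate 2 it was 9 of 71 counts (12.7%, 95% Clopper-Pearson interval 5.96 to 22.7%), whereas in ubp5 replicate 4 it was 507 of 6727 (7.54%, interval 6.92 to 8.19%). These intervals cover counting error only, and the interval of each Col-0 library other than replicates 1 and 3 reached into the range of the ubp5 shares. The lower share in ubp5 restates the smaller fold change of PDF1.2b. It is set beside genes of which PDF1.2a and PDF1.3 were picked for their rise, so it is not a separate result.

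**Figure D2:**
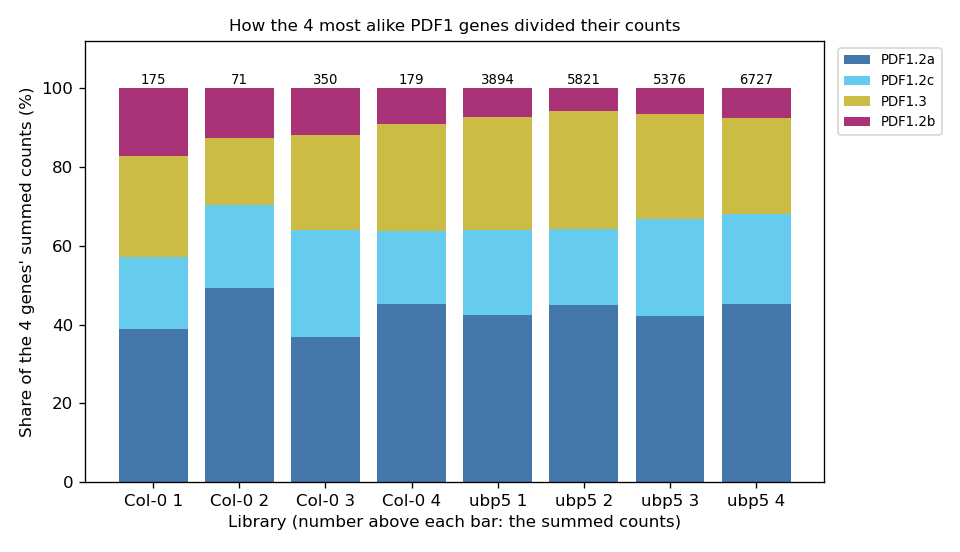
Stacked bars give the share (percent, vertical axis from 0) of the summed counts of PDF1.2a, PDF1.2c, PDF1.3 and PDF1.2b taken by each gene in the 8 libraries, with the summed counts printed above. PDF1.2a takes 36.9 to 49.3% in every library, and the PDF1.2b segment at the top is thinner in the 4 ubp5 libraries.

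PDF1.1, a defensin known from seeds, rose less. It had 30, 42, 12 and 18 counts in Col-0 and 73, 111, 58 and 66 in ubp5, or 9.65 ± 5.53 and 37.6 ± 5.58 CPM (SD, n = 4), with a log2 change of 1.97 (SE 0.30). The order of Col-0 libraries was unlike that of the 4 near copies, with replicate 2 highest and replicate 3 lowest. The summed level of 4 seed storage protein genes was 15.1 to 40.9 CPM in Col-0 and 16.7 to 126 CPM in ubp5, highest in ubp5 replicate 1. The 2S albumin genes among these 4, SESA1 and SESA2, were at 0 in all Col-0 libraries. In ubp5 replicates 1 to 4 SESA1 had 1, 0, 1 and 3 counts and SESA2 had 0, 1, 0 and 1. The part of seed transcripts in the PDF1.1 values was not tested.

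PDF1.4, the distant member, had 121, 9, 37 and 14 counts in Col-0 and 120, 245, 136 and 156 in ubp5, or 17.0 ± 19.8 and 80.3 ± 17.1 CPM (SD, n = 4). All ubp5 libraries were higher, but Col-0 replicate 1, at 45.9 CPM, came within 1.33 times of the lowest of them. Its log2 value of 2.24 (SE 0.52) was called by edgeR but not by DESeq2 (2.25, SE 0.80). Without Col-0 replicate 1 the ratio of means went from 4.72 to 10.9 and the log2 fold change to 3.43 (SE 0.31).

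Of the activators, ORA59, the factor that joins the jasmonate and ethylene signals on PDF1.2, had 47, 29, 39 and 25 counts in Col-0 and 38, 86, 44 and 79 in ubp5. Its level went from 13.1 ± 4.08 to 29.7 ± 7.18 CPM (SD, n = 4), a log2 change of 1.19 (SE 0.24). The groups did not overlap but nearly met, since ubp5 replicate 1 was 1.09 times the highest Col-0 library. The call held when each of the 8 libraries was left out in turn, with log2 fold changes of 1.02 to 1.38. In mean CPM ORA59 thus rose 2.27-fold while the sum of the 4 near copies rose 38.6-fold.

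ERF1, the other activator, had 3, 1, 3 and 4 counts in Col-0 and 0, 4, 1 and 4 in ubp5. These counts lie at or near the floor of 3 counts per library, and a difference between the genotypes was not detectable at this depth. ORA59 and ERF1 shared 43.7% of residues over their aligned length, and no 55-base window of their last 500 bases was shared.

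HEL/PR4, a hevein-like chitin-binding protein, was the most abundant of the effectors. It had 2221, 396, 812 and 698 counts in Col-0 and 1399, 2727, 1076 and 1643 in ubp5, or 385 ± 311 and 814 ± 153 CPM (SD, n = 4). Col-0 replicate 1 was 2.76 times the next Col-0 library and lay within the ubp5 range, and the log2 fold change of 1.08 (SE 0.40) was not called. Without this library the Col-0 mean was 232 ± 74.2 CPM (n = 3) and the gene was called higher, at 1.81 (SE 0.20). It was also called when no filter on low counts was used (1.08, SE 0.33). The HEL/PR4 call therefore turned on Col-0 replicate 1 and on the filter.

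CHIB/PR3, the basic chitinase, did not follow. It had 427, 144, 86 and 174 counts in Col-0 and 74, 151, 68 and 109 in ubp5, or 77.4 ± 57.7 and 48.2 ± 8.17 CPM (SD, n = 4), and its log2 change of -0.68 (SE 0.38) was not called. Col-0 replicate 1 was again high, at 2.78 times the next Col-0 library. Without it the Col-0 mean was 49.2 ± 14.6 CPM (n = 3) and the log2 fold change -0.02 (SE 0.20). Of the genes placed downstream of the same factors, the defensins thus differed widely between the genotypes, HEL/PR4 was called or not with the library and the filter used, and CHIB/PR3 was not called with or without the library.

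**Figure D3:**
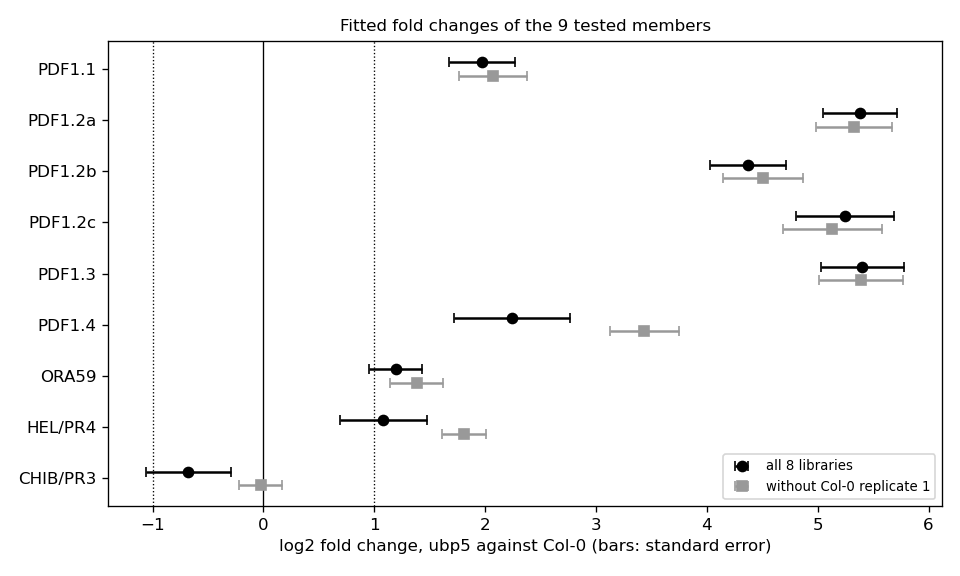
Log2 fold changes of ubp5 against Col-0 for the 9 tested members (horizontal axis, bars for the standard error), with black circles for all 8 libraries, grey squares without Col-0 replicate 1 and dotted lines at -1 and 1. Leaving the library out moves PDF1.4 from 2.24 to 3.43, HEL/PR4 from 1.08 to 1.81 and CHIB/PR3 from -0.68 to -0.02, and the other 6 by less than their standard errors.

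In Col-0 replicate 1, 3 of the 9 tested members (PDF1.4, HEL/PR4 and CHIB/PR3) were at least 2 times the next Col-0 library, beside 1.99% of all tested genes. The same held for 10 of the 81 tested genes (12.3%) in the pathway lists described below. The 4 near copies were not among the 3 members named. In the wild type the effectors and the leaf defensins therefore did not share their highest library, which was replicate 1 for the former and replicate 3 for the latter.

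The genes around the tandem pairs were examined to see how far the change reached. Next to PDF1.2c, 972 bases away on the same strand, AT5G44440 had 0, 1, 3 and 1 counts in Col-0 and 42, 11, 13 and 3 in ubp5. It was too low for the filter, and in the fit without a filter its log2 fold change was 4.09 (SE 0.79, adjusted p = 0.00226 by edgeR's quasi-likelihood test). Its 4 ubp5 values were spread unlike those of PDF1.2c, with replicate 1 highest. The pseudogene AT5G44417, on the other side, had 7, 11, 6 and 6 counts in Col-0 and 2, 1, 0 and 2 in ubp5, a change of the opposite sign (-2.11, SE 0.62, adjusted p = 0.0394 in the same fit). AT5G44450, beyond AT5G44440, was level at 0.09 (SE 0.17).

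Around PDF1.3 and PDF1.2b, 3 of the 6 nearest genes passed the filter and none of these 3 was called. BRIZ2 had a log2 change of -0.37 (SE 0.27), AT2G25980 of -0.40 (SE 0.25) and AT2G26030 of 0.08 (SE 0.24). The ethylene signalling gene RTE1, which lies 15799 bases beyond PDF1.2b, was lower in ubp5 and is described with its pathway.

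**Figure D4:**
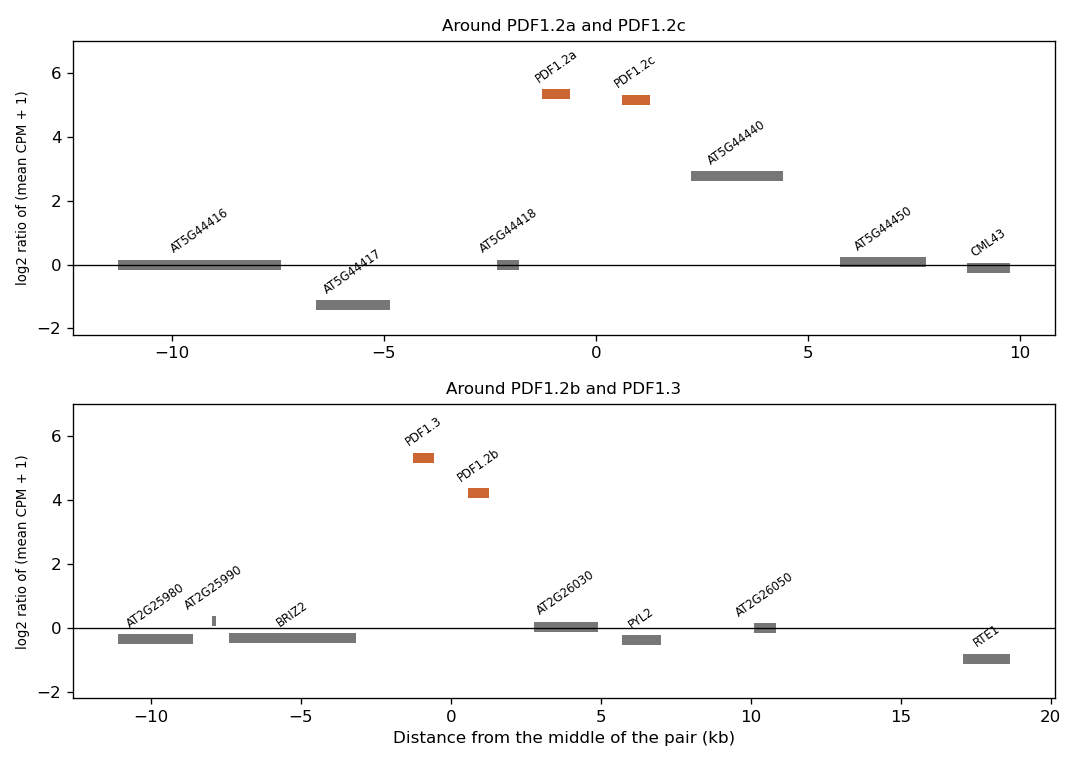
Genes around the PDF1.2a and PDF1.2c pair (top) and the PDF1.2b and PDF1.3 pair (bottom), drawn to scale by distance in kb from the middle of the pair, with members in orange. The vertical axis is the log2 ratio of mean CPM + 1 in ubp5 to that in Col-0, and apart from the members AT5G44440 alone lies far above 0.

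To place the members in their pathway, 9 lists of other genes were counted, 108 genes in all, of which 81 were tested. Of these, 11 were called higher and 2 lower (16.0%, beside 4.84% of all tested genes called in either direction), and their median log2 fold change was 0.03. The lists were drawn up with earlier results of these data known, so the counts are a description of the pathway. Without Col-0 replicate 1, 22 of 82 tested list genes were called higher and 2 lower. Over the 15945 genes of that fit, 465 calls (2.92%) were higher and 472 (2.96%) lower.

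Among 8 other plant defensins 3 were tested and none was called at either sign. PDF2.2, which is expressed through the plant, had 793 ± 233 CPM in Col-0 and 974 ± 178 in ubp5 (log2 fold change 0.30, adjusted p = 0.364 by edgeR). PDF2.3 had 198 ± 42.7 and 127 ± 24.1 CPM (SD, n = 4), with all ubp5 libraries below all Col-0 libraries, but its log2 change of -0.65 (adjusted p = 0.0293) was short of the fold threshold. PDF2.2 and PDF2.3 were thus on opposite sides of 0.

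Of the other group IX ERF factors, the family that holds ORA59 and ERF1, 9 of 15 were tested and none was called (median log2 fold change 0.19). ERF107 was at 405 ± 148 and 414 ± 25.8 CPM, and ERF1A at 44.7 ± 18.4 and 62.1 ± 16.2 CPM (SD, n = 4). ERF2 was called without Col-0 replicate 1 (1.12, adjusted p = 0.000364 by edgeR). Of 6 tested repressor ERF factors none was called either. ERF4, which represses PDF1.2, was at 71.4 ± 13.2 and 71.4 ± 11.0 CPM, and ERF3 had a log2 change of -0.27.

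Both ethylene lists had medians below 0. None of 4 tested ethylene synthesis genes was called (median -0.21), among them the ACC oxidase gene ACO4 (log2 fold change -0.18). Of 12 tested genes of ethylene perception and signalling 2 were called lower and 0 higher (median -0.30). The log2 fold change was above 0 for 1 of the 12 (0.03), beside 48.4% of all tested genes. An adjusted p below 0.05 by edgeR was reached by 5 of the 12, the 2 called genes included. ERS2, an ethylene receptor, had 33, 36, 30 and 35 counts in Col-0 and 6, 9, 5 and 6 in ubp5, the clearest fall of the list (-1.95, SE 0.23, adjusted p = 0.000249 by edgeR). Receptors of this family hold the pathway off when no ethylene is bound.

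RTE1, which promotes the action of the receptor ETR1, had 29, 45, 44 and 31 counts in Col-0 and 16, 19, 7 and 14 in ubp5. The groups did not overlap, and the log2 fold change was -1.03 (SE 0.25, adjusted p = 0.0225 by edgeR). The value sat at the fold threshold and was called in 3 of the 8 fits with a library left out.

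Regulators of PDF1.2 other than ERF factors showed 1 call among 11 tested (median 0.02). It was WRKY70, a factor of the salicylic acid response, at 51.9 ± 29.7 and 113 ± 28.4 CPM (SD, n = 4), with a log2 change of 1.12 (adjusted p = 0.0423 by edgeR). The groups overlapped, since Col-0 replicate 1 reached 246 counts, and the call was kept in 2 of the 8 fits with a library left out. DESeq2 did not call WRKY70 (1.13, adjusted p = 0.102 by DESeq2). Without Col-0 replicate 1 the list had 2 calls, both higher. These were WRKY70 (1.57, adjusted p = 0.000514 by edgeR) and the glutaredoxin gene GRX480 (1.65, adjusted p = 0.0169). WRKY33 and the histone deacetylase HDA19 were level, at -0.26 and 0.02.

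The MYC branch, known to oppose the ERF branch, had 5 genes called higher and 0 lower among 15 tested (median 0.69). VSP2, its usual marker, had 107, 90, 83 and 73 counts in Col-0 and 126, 201, 99 and 182 in ubp5, or 33.0 ± 6.88 and 73.3 ± 7.92 CPM (log2 fold change 1.16, adjusted p = 0.000549 by edgeR). TAT3, a tyrosine aminotransferase, was at 2.38, the jasmonate synthesis gene LOX2 at 1.68, the repressor gene JAZ5 at 1.82 and VSP1 at 1.54. Without Col-0 replicate 1 the list had 7 calls, all higher. The log2 fold change of the summed near copies (PDF1.2a, PDF1.2b, PDF1.2c and PDF1.3) was 5.27, and that of the single gene VSP2 was 1.16.

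The salicylic acid branch had 2 of 9 tested genes called higher and 0 lower, and the log2 fold changes of all 9 were above 0 (median 0.63). PR1 had 269, 119, 391 and 186 counts in Col-0 and 566, 2462, 438 and 1325 in ubp5, or 89.7 ± 44.7 and 534 ± 306 CPM (log2 fold change 2.58, adjusted p = 0.00169 by edgeR). PR2, a glucanase, went from 71.0 ± 35.4 to 221 ± 16.9 CPM (1.64). Without Col-0 replicate 1, PR5, SARD1 and CBP60g were called as well, which made 5 of 9.

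Other effectors of the jasmonate and ethylene response had 3 calls among 12 tested, all higher (median -0.11). The log2 fold change was above 0 for only 5 of the 12, and the lowest, -1.68, was not called. Without Col-0 replicate 1 the list had 7 calls among 13 tested, all higher, and its median was 1.19. The camalexin synthesis gene PAD3 had a log2 value of 2.46 (adjusted p = 0.00226 by edgeR). CYP71A13, of the same pathway, was at 2.31 (adjusted p = 0.0220). For both genes ubp5 replicate 2 was the highest library, and without it CYP71A13 was at 1.50 and not called (adjusted p = 0.0790). CYP71A13 was called in 5 of the 8 fits with a library left out. It reached 3.06 without Col-0 replicate 1, and was also lost without Col-0 replicates 2 (2.06) and 4 (2.02). ACT, an agmatine coumaroyltransferase, was at 1.59 with overlapping groups and was called in 3 of these 8 fits (1.32 to 2.06). The thionin gene THI2.1 had 1, 0, 0 and 0 counts in Col-0 and 9, 15, 4 and 10 in ubp5. It was too low for the filter with all libraries in the fit. The calls gained without Col-0 replicate 1 were THI2.1, AT2G43590 (1.19), AT2G43620 (1.38) and the putative chitinase gene CHI (AT2G43570, 2.25 in place of 1.39). THI2.1 passed the filter in that fit, at 6.44 (SE 0.86, adjusted p = 0.000421 by edgeR). Its remaining Col-0 counts were all 0, and the library left out held only 1 count.

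**Figure D5:**
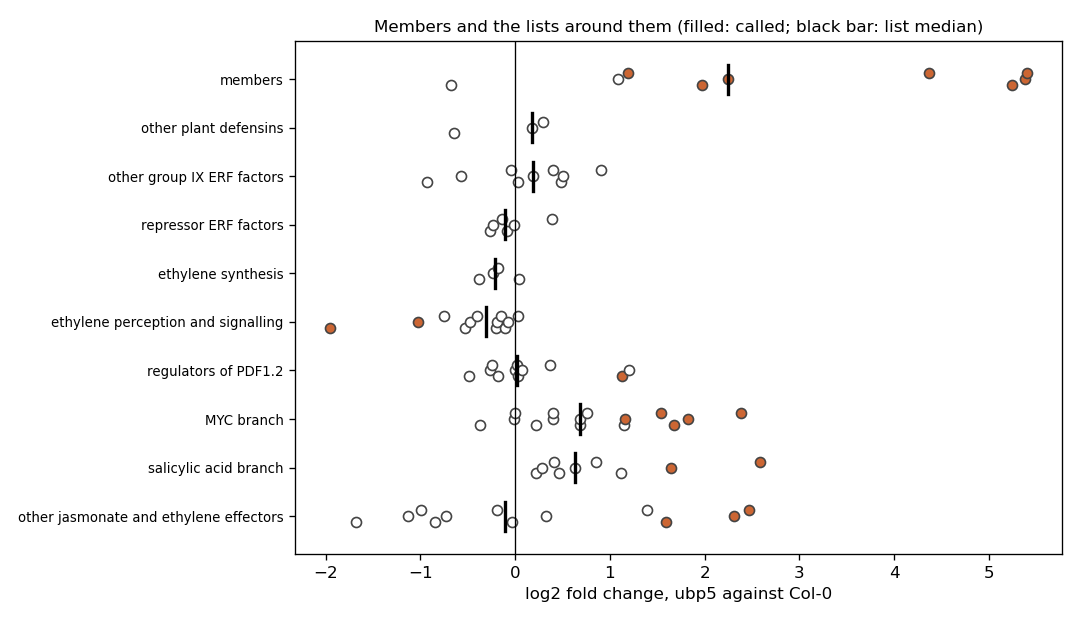
Log2 fold changes of ubp5 against Col-0 (horizontal axis) for the tested members and for the tested genes of the 9 lists, with called genes filled and a black bar at each list's median. The 4 near copies lie at 4.37 to 5.40, beyond every plotted gene of the lists, whose values end at 2.58 (PR1). THI2.1, too low for the filter with all libraries in the fit, is not plotted. It was at 6.44 without Col-0 replicate 1.

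Last, the genes most like PDF1.2a across the 8 libraries were sought. Likeness was the root mean square difference of log2 CPM after each gene was centred on its own mean, over 15649 genes, so that a small value means a like pattern and a like size of change. PDF1.2c came first (0.24) and PDF1.3 second (0.27), and PDF1.2b was in position 4 (0.59). The genes outside the set that came nearest were AT3G29631 (0.58), NATA1 (0.72), BIP3 (0.81), the pseudogene AT4G04293 (0.82) and AT3G29639 (1.02).

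AT3G29631 had 1, 1, 4 and 4 counts in Col-0 and 224, 246, 102 and 129 in ubp5, so that it was near silent in the wild type, unlike PDF1.2a. NATA1, an acetyltransferase known as jasmonate-inducible, had 15, 7, 22 and 27 counts in Col-0 and 315, 758, 168 and 302 in ubp5. BIP3, a chaperone of the endoplasmic reticulum induced by unfolded proteins, had 3, 1, 2 and 1 counts and 59, 71, 38 and 48. In CPM the highest ubp5 library was replicate 1 for AT3G29631 and BIP3 and replicate 2 for NATA1, whereas it was replicate 3 for PDF1.2a.

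The remaining members were farther from PDF1.2a. PDF1.4 was at 1.58 (position 35), PDF1.1 at 1.95 (109), HEL/PR4 at 2.15 (212) and ORA59 in position 232. CHIB/PR3 came at 3.06 (position 14197 of 15649), among the genes least like PDF1.2a. The measure uses the same contrast that helped to pick the members, so these positions carry no test.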

How the data were processed

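The deposited files hold raw counts of distinct molecular identifiers per gene for 4 Col-0 and 4 ubp5 libraries, which the authors made from 3′ RNA-seq reads with STAR 2.7.8a on TAIR10 with Araport11 annotation and BRBseqTools, on the sense strand. Counts were tested with edgeR 4.0.16 (quasi-likelihood, TMM scaling, default expression filter, 15649 genes) with Benjamini-Hochberg adjustment. CPM values use TMM-scaled totals. Standard errors were obtained from the log2 fold change and its F statistic. Library totals ran from 1440510 to 2997743 counts. The floor of 3 counts per library was a chosen setting, and the expression filter decided which genes were tested. Libraries were grouped by genotype label. Alternatives were DESeq2 1.42.0, other scaling and filters, no fold threshold, the replicate number as a block and leaving out each library. Both tools were tested on simulated data. The fit of the summed genes replaced the 4 rows by their sum. Named list genes were the called ones of smallest p, up to 4 per list, or the 2 most abundant where fewer than 2 were called, plus 3 genes on each side of the tandem pairs and the 5 genes nearest to PDF1.2a. JAZ5, ERF2, GRX480, PR5, SARD1, CBP60g, THI2.1, CHI, AT2G43590, AT2G43620 and the distance to RTE1 were added after their values were seen. Members and lists were chosen with earlier results of these data known. Sequences came from TAIR10.1 (RefSeq), in which all 10 members were found, and were aligned with Biopython 1.88. Protein sequences are not printed, and some named items are not reported here.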

Additional observations from a re-analysis of the deposited data

Results flagged for a closer look

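In groups of 4 libraries, 118 sets of values of members, named genes and organ markers were checked for a highest or lowest library far from the other 3 (Dixon's criterion, which chance meets in about 1 of 20 sets), and 7 met it. HEL/PR4 was at 1042 CPM in ubp5 replicate 2, with the next library at 758. CYP71A13 was at 54.6 CPM in the same library, with the next at 14.8. AT2G26030, beside PDF1.2b, was lowest in ubp5 replicate 3, at 8.45 CPM with the next at 12.2. PI was at 3.80 CPM in Col-0 replicate 1, with the next at 1.34. The remaining 3 rest on 1 or 2 counts in a single library: AT2G25990 at 0.334 CPM in Col-0 replicate 4 and at 1.02 CPM in ubp5 replicate 1, and AP1 at 0.752 CPM in Col-0 replicate 3.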

How the results depend on the processing

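All 8 fits with a library left out and the other alternatives kept the log2 fold change of the summed near copies between 5.00 (without Col-0 replicate 2) and 5.74 (without Col-0 replicate 3), and 4.87 with PDF1.1 and PDF1.4 in the sum. Leaving out a library gave 249 to 465 genes called higher, 402 to 493 lower, 7 to 8 members and 10 to 24 listed genes, with 465 and 24 without Col-0 replicate 1. Over the last 300 bases PDF1.2b shared 0 windows with PDF1.3. Dropping the fold threshold gave 719 higher and 992 lower. Over 40 named genes and 520 values, 488 kept direction and call, 21 lost the call (of the members PDF1.4 under DESeq2), 2 gained it (both HEL/PR4) and 9 changed sign, among them none of the members. The sign changes were of log2 fold changes near 0: ERF4 at 0.00198 under DESeq2 and 0.00445 with the replicate block, and ERF107 (-0.18 to 0.23), ERF4 (-0.13 to 0.10), HDA19 (-0.032 to 0.11) and AT2G26030 (-0.044 to 0.27) over the fits with a library left out. The cause was not tested. The replicate numbers did not pair the libraries (correlations of deviations -0.12 to 0.03, and 1 of 4 Col-0 libraries closest to its own number); the replicate block gave 269 higher, 396 lower, 7 members, 15 listed genes and a log2 fold change of 5.40 for the summed near copies. At this depth ERF1, AT5G44440 and THI2.1 did not pass the filter on low counts with all libraries in the fit. THI2.1 passed it without Col-0 replicate 1.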
